A study of Homo sapiens with 42 samples.

Results

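The splicing of 4 human genes of the DNA damage checkpoint, ATM, ATR, ATRIP and CHEK2, was followed in MM.1S and INA-6, 2 human lines of multiple myeloma (a plasma cell cancer). The rows were taken by gene symbol alone from 8 tables, whatever their values, and gave 198 rows for 91 distinct splicing events of the 4 genes, against 77968 distinct events of 11162 gene symbols in all tables. ATM had 33 of the events, CHEK2 24, ATR 18 and ATRIP 16. Each row held the percent spliced in (PSI) of an exon, exon part or retained interval in 3 libraries of IL-6-treated or guide-bearing cells and 3 of their controls. PSI is the share of informative reads that include the feature, in percent, and differences of mean PSI are given in points. The 4 genes were themselves selected on PSI differences already seen in these tables, so their values and p-values are a description and not independent evidence about the genes; no PSI threshold chose single rows.

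Strand-specific mRNA libraries were made from 14 groups of 3. Cells with IL-6 for 24 h were compared with cells without IL-6 for 24 h, in MM.1S and in INA-6. Cas9-bearing cells of both lines were given, by lentivirus, a guide RNA against POU2AF1 or ELL2, and those of MM.1S also one against SRSF1 or HNRNPL. They were compared with Cas9 cells given a guide against EGFP (sgEGFP), a sequence that human cells lack. All guide-bearing cells, sgEGFP cells included, were selected in puromycin for 2 days and were kept with IL-6, for 24 h in MM.1S; the INA-6 labels give no time. No label says that the libraries within a group are separate cultures, so p-values measure the spread between these libraries only. IL-6 is a growth factor of myeloma cells. POU2AF1 coactivates transcription in B cells, ELL2 is an elongation factor prominent in plasma cells, SRSF1 is an SR splicing factor that mostly promotes exon inclusion, and HNRNPL is an RNA-binding protein that represses or promotes exons according to where it binds.

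PSI carries no expression level, so neither the loss of the targeted genes nor the identity of the lines could be read from marker levels; all 9 plasma cell marker genes looked up, such as SDC1 and IRF4, had events in both complete tables. No read counts were listed, so the depth behind a PSI value is unknown. The tables for sgSRSF1 and sgHNRNPL listed events whatever their p and are called complete here. They held 72 and 74 events of the 4 genes, and not every event was in both, for reasons that were not given. They shared their 3 sgEGFP libraries: all 63 events of the 4 genes listed in both had the same sgEGFP values. The other 6 tables listed only events with p under 0.05, plus, in INA-6, events with no p because their PSI did not vary. The sgPOU2AF1 and sgELL2 tables of INA-6 also shared their sgEGFP libraries, while those of MM.1S each had sgEGFP libraries of their own. Absence from 1 of the 6 incomplete tables therefore says nothing about the size of a difference. Listing at p under 0.05 also favours events whose groups do not overlap. For events of those 6 tables, groups that do not overlap are therefore a description and add no support. Of the 91 events, 18 were at 0% in every library with a value.

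ATM and ATR are the large kinases at the head of the checkpoint. ATM responds to double-strand breaks and phosphorylates CHEK2, the effector kinase, on a cluster of serine and threonine residues followed by glutamine in the CHEK2 N terminus. ATR is brought to single-stranded DNA by its partner ATRIP and responds to stalled replication. Alternative exons of these genes can remove regulatory or catalytic segments or shift the reading frame.

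Few events of the 4 genes met a threshold of p under 0.05 with a difference of at least 10 points, using the p of the authors' deposited tables, which is unadjusted. With sgSRSF1, whose table is complete, 4 of 57 events with a p did, all in CHEK2, against 5.75% of all events; without the second or the third listed sgSRSF1 library 1 of them did. With sgHNRNPL, also complete, 1 of 57 did, also in CHEK2, against 1.81% of all events. With IL-6 in MM.1S it was 1 of 8 listed events, in ATRIP, against 13.9% of all listed events, and with sgELL2 in MM.1S 2 of 5, in ATM and ATR, against 11%. None of the 2 events listed for sgPOU2AF1 in MM.1S did, against 10.2%, nor the 2 with a p for IL-6 in INA-6, against 12.2%, the 7 for sgPOU2AF1 in INA-6, against 10.1%, or the 2 for sgELL2 in INA-6, against 10.2%. These shares lie near the background or rest on 8 events or fewer, so the counts are no result about the 4 genes as a group. At any size of difference, p was under 0.05 in 6 of 57 events with sgSRSF1, against 16.4% of all events, and in 3 of 57 with sgHNRNPL, against 7.33%.

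A fit across all events gave a test adjusted for their number. limma was fitted to the logit of PSI, with Benjamini-Hochberg adjustment over all events that varied. With an adjusted p under 0.05 and a difference of 10 points or more it called 1 of the 54 events of the 4 genes fitted with sgSRSF1, against 4.11% of all events. It called 0 of 56 with sgHNRNPL, against 0.234%, where the deposited p was under 0.05 in 3. limma's unadjusted p was under 0.05 in 13 of 54 with sgSRSF1, against 23.6% of all events, and in 8 of 56 with sgHNRNPL, against 11.1%. Between sgSRSF1 and sgHNRNPL cells it called 5 of 49, against 6.08%; all 5 were in CHEK2, 1 higher and 4 lower in sgSRSF1 cells. With each library left out in turn it called 2 to 5, and the CHEK2 325-nt exon against ENST00000348295 and its 87-nt exon were among them each time. At any size of difference the counts were 4 of 54 for sgSRSF1 (8.21% of all events), 0 of 56 for sgHNRNPL (0.381%) and 6 of 49 between them (11.5%). The median absolute difference over the events of the 4 genes was 0.834 points with sgSRSF1 and 0.916 points with sgHNRNPL, beside 1.39 and 0.970 points over all events of those tables.

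**Figure D1:**
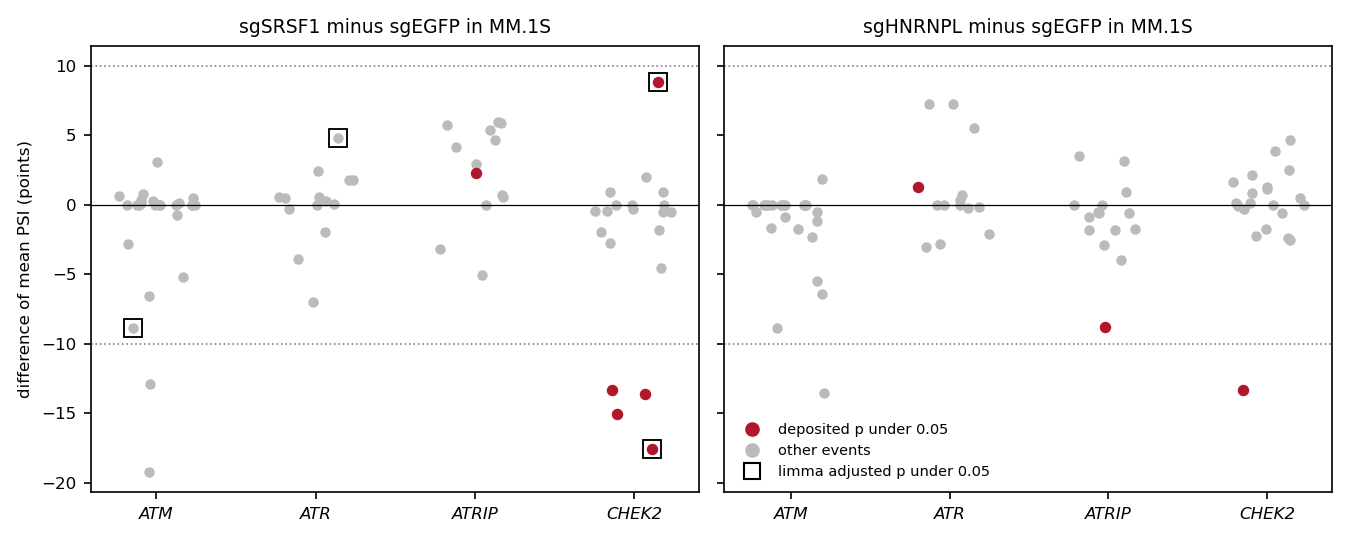
Difference of mean PSI (points) for every event of each gene, sgSRSF1 minus sgEGFP at left and sgHNRNPL minus sgEGFP at right, in MM.1S. Each point is 1 event, red where the deposited p was under 0.05, squared where limma's adjusted p was under 0.05; dotted lines mark 10 points. The 4 red points below the lower line at left are all events of the CHEK2 325-nt exon, and the CHEK2 87-nt exon is the highest point at left (8.84 points) and the red one below the line at right (-13.36 points).

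CHEK2 held the clearest differences, in 2 coding exons. The gene lies at chr22:28687743-28742422 on the minus strand (GRCh38, GENCODE v29). The 325-nt exon at chr22:28734403-28734727 is exon 2 of 15 in transcript ENST00000404276 and carries the start codon and 319 coding bases. Its first 300 coding bases, chr22:28734422-28734721 on the minus strand, are shown because they encode the ATM target region; capitals mark the 7 codon pairs for serine or threonine followed by glutamine, which start at codons 19, 26, 28, 33, 35, 50 and 68 counted from the start codon.
CHEK2 325-nt exon: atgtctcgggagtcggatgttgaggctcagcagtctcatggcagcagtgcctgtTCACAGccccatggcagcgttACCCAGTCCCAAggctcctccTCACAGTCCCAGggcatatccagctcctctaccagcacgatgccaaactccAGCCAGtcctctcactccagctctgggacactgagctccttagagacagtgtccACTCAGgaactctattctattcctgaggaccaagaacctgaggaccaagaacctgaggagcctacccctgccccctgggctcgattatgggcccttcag
Threonine 68 is the residue that ATM phosphorylates to activate the kinase. The 87-nt exon at chr22:28696901-28696987 is exon 10, begins at a codon boundary and has a length divisible by 3. It is shown whole because it encodes residues 337 to 365 of 543, in the kinase domain; capitals mark the codons of the catalytic-loop HRD motif, from codon 345.
CHEK2 87-nt exon: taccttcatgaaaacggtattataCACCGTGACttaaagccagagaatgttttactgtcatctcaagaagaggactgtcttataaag
Skipping of the 87-nt exon keeps the reading frame, whereas skipping of the 325-nt exon removes the annotated start codon.

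**Figure D2:**
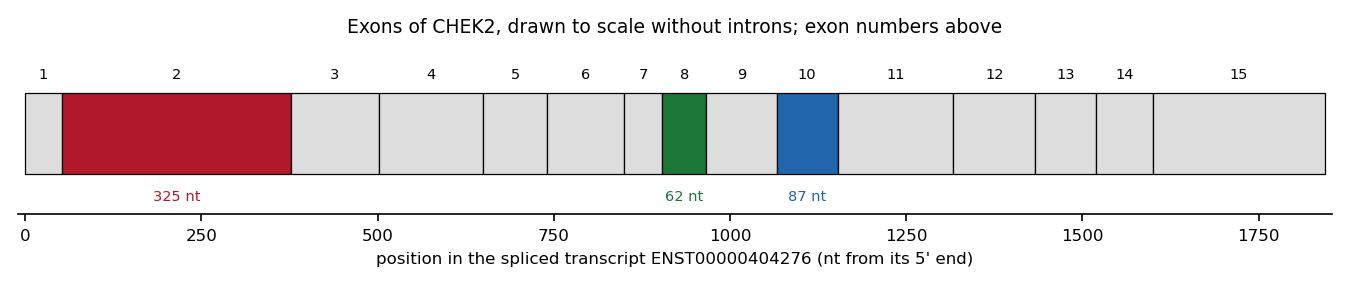
The 15 exons of CHEK2 transcript ENST00000404276 to scale in the spliced transcript (x axis, nt from its 5' end), with exon numbers above. Coloured boxes are the 325-nt, 62-nt and 87-nt exons described in the text; the 325-nt exon is the longest of the transcript.

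Inclusion of the 325-nt exon was lower with sgSRSF1. In the event listed against transcript ENST00000348295 PSI was 71.5, 67.4 and 67.8% in sgSRSF1 cells, against 89.6, 85.1 and 84.8% in sgEGFP cells. Each sgSRSF1 library lay below all 3 sgEGFP libraries. PSI averaged 68.9% ± 2.3 in sgSRSF1 cells and 86.5% ± 2.7 in sgEGFP cells (SD, n = 3 each), a difference of -17.55 points. The log2 odds of inclusion changed by -1.55 ± 0.24 (SE), and limma's Benjamini-Hochberg adjusted p was 0.0224. With each library left out in turn the difference stayed between -18.85 and -16.01 points. limma's adjusted p lay between 0.0561 and 0.0723 in 5 of these 6 fits and was 0.0463 without the first listed sgEGFP library. In these bulk libraries a shift in every cell and a larger shift in some of the cells cannot be told apart.

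The same exon showed no called difference in sgHNRNPL cells. PSI was 90.1, 89.4 and 91.6% in sgHNRNPL cells, with the sgEGFP values above. The sgHNRNPL libraries overlapped the highest sgEGFP library, and limma's adjusted p was 0.504 for a difference of 3.89 points. Set directly against each other, sgSRSF1 minus sgHNRNPL cells differed by -21.44 points, with limma's adjusted p of 0.0015, and this call held in all 14 fits, the alternatives and the libraries left out included. With sgELL2 in MM.1S PSI was 83.5, 82.8 and 83.2%, against 85.3, 84.7 and 84.6% in its own sgEGFP cells. Those groups did not overlap, with a difference of -1.69 points. The event was typed as a single skipped exon in the sgELL2 table and as a mutually exclusive exon (MXS) in the other tables, with the same coordinates.

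Against longer reference transcripts the tables listed the 325-nt exon in further events that skip more than 1 exon, with lower PSI, so the values of 1 exon are not shares of 1 total and share reads. Taken against ENST00000405598, PSI was 47.2, 42.2 and 37.8% in sgSRSF1 cells and 55.7, 56.1 and 58.6% in sgHNRNPL cells, against 55.7, 57.7 and 53.7% in sgEGFP cells. The sgSRSF1 libraries were again the lowest. Of the 5 events of the exon in the sgSRSF1 table, 4 passed the deposited threshold, with differences between -17.55 and -13.30 points, and the fifth, against ENST00000382580, differed by -4.58 points. Beyond the first event, those against ENST00000398017, ENST00000405598 and ENST00000650281 had limma adjusted p of 0.079, 0.086 and 0.080 with sgSRSF1, and 0.033, 0.024 and 0.020 between sgSRSF1 and sgHNRNPL cells, where the differences were -14.50, -14.40 and -15.21 points. Over the alternatives and the libraries left out, limma's adjusted p for sgSRSF1 against sgHNRNPL reached 0.0953, 0.0750 and 0.0629, and the 3 events were called in 7, 9 and 10 of 14 fits. Some of these fits leave out an sgEGFP library, which does not enter the difference. Among fits without an sgSRSF1 or sgHNRNPL library, the ENST00000398017 and ENST00000405598 events were called only without the first listed sgSRSF1 library. The ENST00000650281 event was called in that fit and without the first listed sgHNRNPL library, and in no other of these.

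The 3 multi-exon events were also listed for IL-6 in MM.1S, with small differences in the other direction. Against ENST00000405598 PSI was 38.0, 40.1 and 40.2% with IL-6 and 34.9, 36.3 and 36.4% without. IL-6 libraries were all higher, and PSI averaged 39.4% ± 1.3 with IL-6 and 35.9% ± 0.84 without (SD, n = 3 each). Over the 3 events the difference was between 3.24 and 3.59 points, under the threshold of 10. Against ENST00000405598 both groups lay below every sgEGFP library of the sgSRSF1 experiment, whose cells were also kept with IL-6. The cause of this gap between experiments was not tested.

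**Figure D3:**
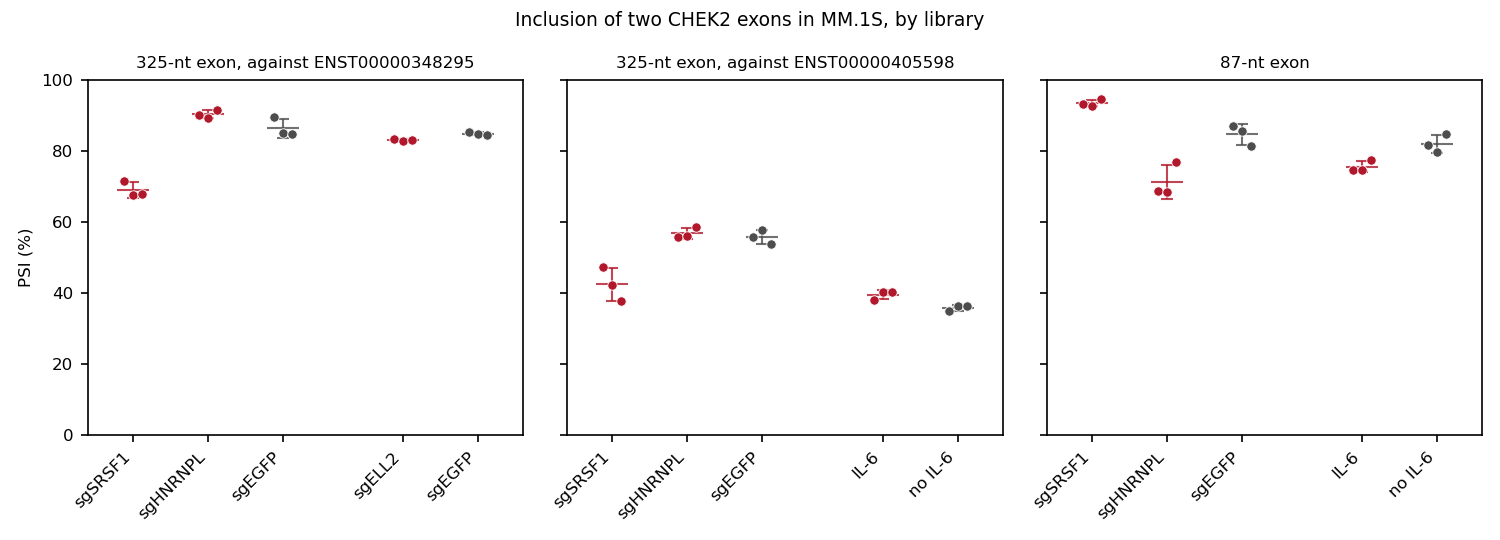
PSI (%) of the CHEK2 325-nt exon against ENST00000348295 (left), of the same exon against ENST00000405598 (middle) and of the 87-nt exon (right) in MM.1S, with 1 point per library and the mean ± SD of 3; red marks guide or IL-6 libraries and grey the sgEGFP or no IL-6 libraries beside them. The sgSRSF1 libraries lie lowest at left (67.4 to 71.5%) and highest for the 87-nt exon (92.7 to 94.5%). In the middle they lie below the sgHNRNPL and sgEGFP libraries beside them, while the libraries without IL-6 lie lowest.

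The 87-nt exon that encodes the HRD motif differed in opposite directions with the 2 splicing factors. PSI was 93.2, 92.7 and 94.5% in sgSRSF1 cells, against 86.9, 85.6 and 81.4% in sgEGFP cells. In sgHNRNPL cells it was 68.6, 68.4 and 76.9%. All sgSRSF1 libraries lay above, and all sgHNRNPL libraries below, the 3 sgEGFP libraries.

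The mean was 93.5% ± 0.94 with sgSRSF1, 71.3% ± 4.8 with sgHNRNPL and 84.6% ± 2.9 with sgEGFP (SD, n = 3 each). For sgSRSF1 the difference was 8.84 points, with limma's adjusted p of 0.0302, under the 10 points set for a call. With each library left out in turn, limma's adjusted p for sgSRSF1 lay between 0.0587 and 0.0837. For sgHNRNPL it was -13.36 points, with p = 0.0224 in the authors' deposited table, but limma's adjusted p was 0.219, and over the alternatives it ranged from 0.211 to 0.412. The deposited threshold was passed in 3 of the 6 sets that leave out 1 library. The direct test of sgSRSF1 against sgHNRNPL cells gave 22.20 points, higher in sgSRSF1 than in sgHNRNPL cells, with limma's adjusted p of 0.0013 and a call in all 14 fits.

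The 87-nt exon was also listed for IL-6 in MM.1S, with a difference under 10 points. PSI was 74.7, 74.7 and 77.4% with IL-6 and 81.7, 79.6 and 84.6% without. The groups did not overlap, and the difference was -6.38 points. The IL-6 libraries also lay below every sgEGFP library of the sgSRSF1 experiment, whose cells were kept with IL-6 too, and the cause was not tested. An alternative 3' splice site that lengthens this exon by 142 nt at chr22:28696988-28697129 was used at 1.75, 3.35 and 2.69% with IL-6 and at 0.80, 0.48 and 0% without. It was listed in 2 events with the same PSI values, the other taken from chr22:28695874 on against ENST00000348295. With sgHNRNPL the extension differed by 0.16 points, at limma's adjusted p of 0.930.

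Another CHEK2 exon was listed in INA-6. The 62-nt coding exon 8 at chr22:28703505-28703566, in the kinase domain, had a PSI of 87.1, 84.6 and 86.0% in sgPOU2AF1 cells, against 92.6, 93.2 and 91.2% in sgEGFP cells. The groups did not overlap, and the difference was -6.40 points, with p = 0.00276 in the authors' deposited table. In MM.1S its PSI was 93.1, 91.9 and 94.2% in sgSRSF1 cells and 94.3, 90.4 and 94.4% in sgHNRNPL cells, against 94.0, 94.0 and 88.6% in sgEGFP cells. Those groups overlapped, and limma's adjusted p was 0.844 for sgSRSF1 and 0.912 for sgHNRNPL. The CHEK2 events other than those of these 3 exons and the 142-nt extension, events at 0% included, differed by between -2.78 and 1.98 points with sgSRSF1 (13 events) and by between -2.56 and 4.64 points with sgHNRNPL (12 events). Multi-exon events of a 117-nt exon at chr22:28726245-28726361 and a 143-nt exon at chr22:28727980-28728122, both tagged NMD in the tables, were at 0% in every library with a value.

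Short motifs were searched on the RNA strand of these exons, as a description only: GGAGA and GAAGAA, purine-rich elements of the kind SRSF1 binds, and ACACA, of the CA-rich kind HNRNPL binds. None of the 3 occurred as an exact match in the 325-nt or the 87-nt exon. Other purine-rich or CA-rich sequences in these exons were not searched. Among 298 skipped exons within 10% of 325 nt, 49.7% held GGAGA, 21.8% GAAGAA and 21.1% ACACA. Among 2433 exons within 10% of 87 nt the shares were 16.2%, 7.27% and 7.93%. Flanking introns were not searched.

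ATM lies at chr11:108222484-108369102 on the plus strand. Of its 27 events in the complete tables, 22 had a mean PSI below 5% or above 95%, beside 11 of 17 for ATR, 8 of 16 for ATRIP, 12 of 23 for CHEK2 and 51.1% of all events there. Of its 33 events in all tables, 12 were at 0% in every library. The 6 of these that were listed in 3 or more tables were intervals at chr11:108244119-108244787, chr11:108326226-108327644, chr11:108331558-108331878 and chr11:108332038-108332761, a 9-nt alternative 5' splice site at chr11:108247128-108247136 and a 71-nt exon at chr11:108320710-108320780.

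The ATM event past the deposited threshold was a 293-nt retained interval in the 3' untranslated region, at chr11:108367265-108367557, with sgELL2 in MM.1S. PSI was 45.6, 38.2 and 38.2% in sgELL2 cells, against 51.2, 56.0 and 49.5% in sgEGFP cells. The groups did not overlap; PSI averaged 40.7% ± 4.3 in sgELL2 cells and 52.2% ± 3.4 in sgEGFP cells (SD, n = 3 each). The difference was -11.51 points, with p = 0.0236 in the authors' deposited table. With each library left out the difference ranged from -13.98 to -9.63 points, and 2 of these 6 sets passed the threshold. The gene C11orf65 overlaps this interval on the opposite strand, the tables mark it as an overlapping region, and use of strand by the caller was not given in the sources used here.

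Other ATM differences were seen without passing both thresholds, and these were picked out after their values were seen. An alternative 5' splice site form of 1334 nt at chr11:108295060-108296393 was at 0% in all 3 sgSRSF1 libraries and all 3 sgHNRNPL libraries, against 4.17, 10.5 and 12% in the sgEGFP libraries that both share. The difference was -8.90 points in each comparison, with limma's adjusted p of 0.0204 for sgSRSF1 and 0.0882 for sgHNRNPL. Without the first listed sgEGFP library it was -11.26 points and was called in both, at adjusted p of 0.0216 and 0.0285. An 83-nt coding exon at chr11:108271064-108271146, tagged NMD, had a PSI of 75.0, 64.3 and 75.0% in sgSRSF1 cells, against 100, 72.0 and 100% in sgEGFP cells. One sgEGFP library lay among the sgSRSF1 values, and limma's adjusted p was 0.239 for -19.24 points; without that library it was 0.0212 for -28.57 points.

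An 88-nt exon of the ATM 5' untranslated region at chr11:108224784-108224871 had a PSI of 20.7, 6.15 and 16.3% in sgSRSF1 cells and 14.6, 9.09 and 17.5% in sgHNRNPL cells, against 35.7, 18.2 and 27.9% in sgEGFP cells. Only sgHNRNPL lay wholly below sgEGFP, and limma's adjusted p was 0.292 and 0.403 for sgSRSF1 and sgHNRNPL. These values are of the event against ENST00000452508, with differences of -12.92 and -13.54 points. Against ENST00000639953 and ENST00000640388 the same exon differed by -5.19 and -6.55 points with sgSRSF1, and by -5.46 and -6.44 points with sgHNRNPL. In INA-6 a 4-nt alternative 3' splice site at chr11:108227595-108227598 had a PSI of 90.9, 90.9 and 90.0% with IL-6, against 100 and 100% in the 2 libraries without IL-6 that had a value. A retained interval at chr11:108226248-108227594 in INA-6 stood at 3.70, 2.86 and 2.78% in sgPOU2AF1 cells, against 1.09, 0 and 0% in sgEGFP cells. The same interval stood at 0.934% ± 0.083 with IL-6 and at 0% without (SD, n = 3 each).

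ATR lies at chr3:142449235-142578826 on the minus strand. Its event past the deposited threshold was a short form of a long coding exon with sgELL2 in MM.1S. The full exon has 878 nt (chr3:142562232-142563109), and the short form keeps 117 nt, chr3:142562232-142562348, through an alternative 3' splice site. GENCODE v29 gives the short form in transcript ENST00000507148, of the nonsense-mediated decay class, and the tables tag it NMD. It is shown because the shift of frame brings a stop codon, in capitals, at codon 101 of that transcript.
ATR 117-nt exon: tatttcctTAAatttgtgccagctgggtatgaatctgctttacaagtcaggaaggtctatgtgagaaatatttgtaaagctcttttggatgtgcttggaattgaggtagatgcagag
The event was typed as a single skipped exon, so its PSI sets the short form against skipping. It is not the share of the short form beside the full exon. PSI was 61.1, 55.8 and 62.2% in sgELL2 cells, against 39.4, 52.7 and 44.3% in sgEGFP cells. The lowest sgELL2 library lay close above the highest sgEGFP library. PSI averaged 59.7% ± 3.4 in sgELL2 cells and 45.5% ± 6.7 in sgEGFP cells (SD, n = 3 each).

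The ATR difference was 14.22 points, with p = 0.0473 in the authors' deposited table. With each library left out it ranged from 11.19 to 17.83 points, and 1 of the 6 sets passed the threshold. In the other MM.1S experiment PSI was 56.8, 58.2 and 41.8% in sgSRSF1 cells and 48.3, 44.8 and 47.2% in sgHNRNPL cells, against 56.4, 46.3 and 46.7% in sgEGFP cells. Those groups overlapped, with limma's adjusted p of 0.838 and 0.808 for sgSRSF1 and sgHNRNPL. In the same table the full 878-nt exon had a PSI of 92.6, 92.9 and 79.1% in sgSRSF1 cells, against 96.0, 98.8 and 90.8% in sgEGFP cells, so the PSI of the 2 forms do not sum to 100% and are not shares of 1 total.

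Smaller ATR differences concerned retained intervals and a long alternative 5' splice site. An 863-nt interval near the 3' end, chr3:142449603-142450465, which the gene AC109992.1 overlaps on the opposite strand, was at 2.8, 3.1 and 2.7% in sgPOU2AF1 cells of MM.1S, against 1.3, 1.5 and 1.5% in their sgEGFP cells. In the complete tables it was at 1.6, 1.1 and 1.8% with sgHNRNPL and at 0, 0 and 0.6% with sgSRSF1, against 0, 0 and 0.5% with sgEGFP, and limma's adjusted p for sgHNRNPL was 0.501. A form at chr3:142474562-142485140, singled out after its values were seen, stood at 3.95, 4.03 and 9.68% in sgSRSF1 cells, against 0.88, 0.76 and 1.54% in sgEGFP cells. The sgSRSF1 values lay above all sgEGFP values, with limma's adjusted p of 0.0407 for 4.83 points. The retained interval at chr3:142465241-142466323 and 1 event of the interval at chr3:142468069-142469336 were at 0% in every library with a value. The event of the latter interval against ENST00000666447 differed by 0.25 points with sgSRSF1. A retained interval at chr3:142561422-142562231 was at 0% except for 1.67% in 1 sgSRSF1 library.

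ATRIP, at chr3:48446710-48467645 on the plus strand, shares its 3' end with TREX1, a DNA exonuclease gene on the same strand at chr3:48465811-48467645. Events there cannot be assigned to 1 of the genes from the tables. The ATRIP event past the deposited threshold lay in this shared stretch, a 98-nt retained interval at chr3:48466642-48466739, in the annotated 3' untranslated region of ATRIP. With IL-6 in MM.1S PSI was 56.9, 47.6 and 53.5%, against 60.9, 69.0 and 68.0% without IL-6. The groups did not overlap; PSI averaged 52.7% ± 4.7 with IL-6 and 66.0% ± 4.4 without (SD, n = 3 each). The difference was -13.30 points, with p = 0.0234 in the authors' deposited table; with each library left out it ranged from -15.82 to -10.77 points, and 3 of 6 sets passed the threshold.

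The 98-nt interval differed in the opposite direction with sgELL2 in MM.1S. PSI was 54.1, 54.6 and 57.7% in sgELL2 cells, against 48.8, 50.7 and 46.0% in sgEGFP cells, a difference of 7.01 points. No library of one group reached the other. With sgHNRNPL it was 41.7, 42.3 and 41.4%, against 40.3, 43.8 and 50% with sgEGFP, values that overlap.

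**Figure D4:**
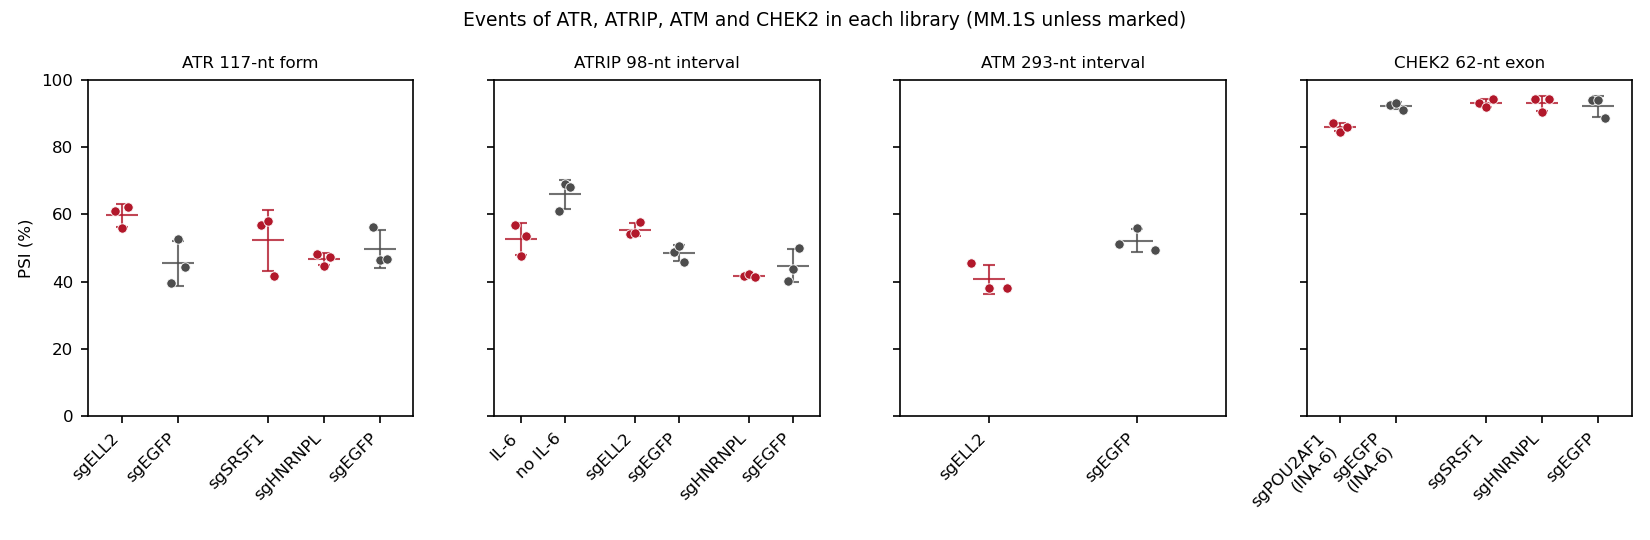
PSI (%) of the ATR 117-nt form, the ATRIP 98-nt interval, the ATM 293-nt interval and the CHEK2 62-nt exon, with 1 point per library and the mean ± SD of 3; red marks guide or IL-6 libraries and grey the sgEGFP or no IL-6 libraries beside them. The ATR form is higher with sgELL2 (55.8 to 62.2%) than with its sgEGFP (39.4 to 52.7%), the ATM interval is lower with sgELL2 (38.2 to 45.6%) than with its sgEGFP (49.5 to 56.0%), and the ATRIP interval is lower with IL-6 (47.6 to 56.9%) than without (60.9 to 69.0%).

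Longer intervals nested in the same stretch were listed together. All 4 start at chr3:48466310 and end at 48466629, 48466739, 48466777 or 48467064, so they share most reads and are not independent. The 320-nt interval was at 7.2, 6.9 and 9.5% in sgPOU2AF1 cells of INA-6, against 2.5, 2.7 and 3.1% in sgEGFP cells. Over the 4 the difference was between 4.55 and 5.09 points. Their groups did not overlap, which the listing of events by p already favours. In MM.1S the 320-nt interval was at 19.1, 17.4 and 26.6% in sgSRSF1 cells and 16.4, 11.3 and 12.8% in sgHNRNPL cells, against 15.3, 15.3 and 15.4% in sgEGFP cells. Over the 4 intervals the differences were 5.41 to 5.95 points with sgSRSF1, at limma adjusted p of 0.244 to 0.392, and -1.79 to 0.950 points with sgHNRNPL. A further interval there, chr3:48466170-48466667, was at 9.9, 12.9 and 9.6% in sgHNRNPL cells, against 16.7, 19.1 and 23.1% in sgEGFP cells, with limma's adjusted p of 0.225 for -8.81 points. Between sgSRSF1 and sgHNRNPL cells this interval differed by 13.47 points, at limma's adjusted p of 0.107, and was not called. Of the fits that leave out 1 library, limma called it only without the second listed sgSRSF1 library, at 19.29 points and adjusted p of 0.0132.

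**Figure D5:**
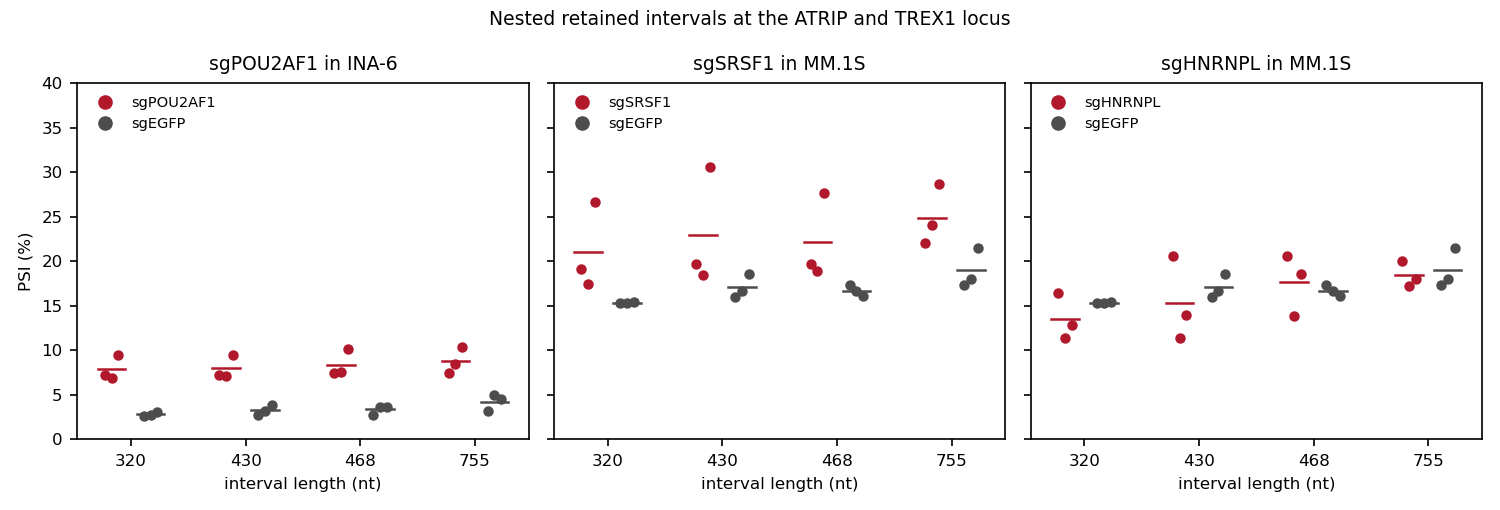
PSI (%) of 4 nested retained intervals at the ATRIP and TREX1 locus, by interval length (nt), for sgPOU2AF1 in INA-6 and for sgSRSF1 and sgHNRNPL in MM.1S; points are libraries, bars their means, red the guide named in the legend and grey sgEGFP. In INA-6 all sgPOU2AF1 points lie above all sgEGFP points, and in MM.1S the sgSRSF1 libraries spread more widely (17.4 to 26.6% for the 320-nt interval) than the sgEGFP libraries (15.3 to 15.4%).

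Upstream of the shared stretch, ATRIP exons differed little. The 81-nt coding exon at chr3:48464582-48464662 was at 91.3, 87.5 and 90.1% with IL-6 in MM.1S, against 92.5, 95.9 and 98.03% without IL-6. Its groups did not overlap, with a difference of -5.82 points; in the complete tables its differences were 2.94 points with sgSRSF1 and -0.047 points with sgHNRNPL. An 85-nt exon tagged NMD at chr3:48461361-48461445 was at 4.0, 4.0 and 4.3% in sgPOU2AF1 cells of INA-6, against 2.5, 2.4 and 2.4% in sgEGFP cells. In MM.1S it was at 4.2, 4.3 and 3.0% with sgSRSF1 and 7.7, 5.6 and 1.8% with sgHNRNPL, against 2.3, 0.4 and 1.9% with sgEGFP, at limma adjusted p of 0.111 and 0.504. A 293-nt first-exon segment at chr3:48446800-48447092 was at 95.7, 96.7 and 95.2% in sgPOU2AF1 cells of MM.1S, against 93.8, 93.9 and 94.5% in sgEGFP cells, and differed by -3.16 points with sgSRSF1 and -1.80 points with sgHNRNPL. Between sgSRSF1 and sgHNRNPL cells the 130-nt exon at chr3:48459787-48459916 was the sixth event past limma's adjusted p, at 0.0153, with 99.2, 99.2 and 100% in sgSRSF1 cells, against 95.9, 92.9 and 95.4% in sgHNRNPL cells.

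No event of the 4 genes was listed in both cell lines for the same contrast, whether IL-6, sgPOU2AF1 or sgELL2, so no effect could be set side by side between MM.1S and INA-6.

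Around these kinases, 38 of 41 other checkpoint genes had events in both complete tables. With sgSRSF1 limma called events in 4 of the 38, BRCA1, CDC25C, MDC1 and CHEK1 (2 with a higher and 3 with a lower event, CDC25C with both), against 13.1% of all genes listed. The deposited threshold called 10 (3 with a higher and 8 with a lower event), against 19.1% of all genes. With sgHNRNPL neither rule called any, against 0.750% and 7.31% of all genes. In BRCA1, a repair and checkpoint scaffold, a 77-nt exon at chr17:43095846-43095922 averaged 48.6% ± 2.8 in sgSRSF1 cells and 87.3% ± 4.8 in sgEGFP cells, and its 46-nt exon at chr17:43097244-43097289 averaged 49.5% ± 0.67 and 83.4% ± 1.7 in the same groups (SD, n = 3 each). limma's adjusted p was 0.0125 and 0.0047 for these exons. A 95-nt exon of CDC25C, the phosphatase that CHEK2 and CHEK1 inhibit, averaged 94.8% ± 0.60 in sgSRSF1 cells and 66.6% ± 4.4 in sgEGFP cells. A segment of MDC1, a scaffold at breaks, averaged 25.8% ± 5.8 in sgSRSF1 cells and 53.3% ± 5.0 in sgEGFP cells.

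In the other tables the deposited threshold called 2 of 17 listed checkpoint genes with IL-6 in MM.1S, against 18.7% of listed genes, 1 of 11 with sgELL2 in MM.1S, against 12.9%, and 1 of 18 with sgPOU2AF1 in INA-6, against 10.8%. It called none of 10 with sgPOU2AF1 in MM.1S, against 13.0%, none of 17 with IL-6 in INA-6, against 9.50%, and none of 19 with sgELL2 in INA-6, against 7.05%. A 34-nt CDC25C exon at chr5:138326021-138326054 averaged 61.3% ± 6.5 with IL-6 and 76.8% ± 3.1 without, and 64.4% ± 4.3 in sgELL2 cells and 76.7% ± 3.1 in sgEGFP cells (SD, n = 3 each). With IL-6 a 90-nt exon of RNF8, a ubiquitin ligase recruited to breaks, averaged 62.5% ± 2.4, against 73.5% ± 1.0 without IL-6. In INA-6 the 46-nt BRCA1 exon averaged 68.9% ± 2.5 in sgPOU2AF1 cells and 79.2% ± 4.5 in sgEGFP cells.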

How the data were processed

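RNA splicing was measured in 42 libraries, 14 groups of 3. Reads were aligned to GRCh38 with STAR 2.7.10b and handled with SAMtools 1.19.2, per the submitters' processing notes (splicing caller not given in the sources used here). Deposited tables, 1 for each of 8 comparisons, hold PSI in percent, the difference of mean PSI, and a p-value headed as a Benjamini-Hochberg FDR. Recomputed from the listed PSI, that deposited p-value is an unadjusted p of Welch's form in 100% of events with a value, within 1%, so it was used only to describe. For sgPOU2AF1 and sgELL2 in INA-6, the PSI columns are headed MM.1S but every other header and the table name read INA-6, which was used.

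The 4 genes, the checkpoint gene list and the tests were chosen with earlier results of these data known. limma 3.58.1 (R 4.3.3) was fitted to logit PSI (base 2, values limited to 1 and 99%) over all events that varied, with at least 2 libraries per group. A check on simulated data covered only the median estimate of large changes in events of intermediate PSI. It does not cover events of high PSI or smaller differences. sgSRSF1 was set against sgHNRNPL in a fit of the 3 groups with sgEGFP. Events named are those called in at least 1 comparison or listed in 3 or more tables; checkpoint genes named are those called, with values for at most 3 per comparison. Events of ATM, ATR and ATRIP outside this rule were named after their values were seen. Exons were matched to GENCODE v29, and sequences were read from its transcripts. Alternatives were the minimum difference, the limits on PSI, no transformation, complete values, and each library left out.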

Additional observations from a re-analysis of the deposited data

How the results depend on the processing

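No paired analysis was possible because the PSI columns carry no replicate numbers. With a minimum of 5 points in place of 10, the events of the 4 genes past the deposited threshold became, in MM.1S, 5 of 57 for sgSRSF1 (9.69% of all events with a p), 2 of 57 for sgHNRNPL (3.70%), 3 of 8 for IL-6 (38.4%) and 3 of 5 for sgELL2 (28.3%), and, in INA-6, 1 of 2 for IL-6 (33.5%) and 3 of 7 for sgPOU2AF1 (29%). The checkpoint genes became, in MM.1S, 18 of 38 for sgSRSF1 (29.1% of all listed genes), 5 of 38 for sgHNRNPL (13.9%), 8 of 17 for IL-6 (46.0%), 3 of 10 for sgPOU2AF1 (34.9%) and 3 of 11 for sgELL2 (32.3%), and, in INA-6, 2 of 17 for IL-6 (24.0%), 5 of 18 for sgPOU2AF1 (27.7%) and 1 of 19 for sgELL2 (18.9%). Whether the list differs from all genes was not tested. With 20 points the deposited threshold was passed by none of these in any of the 8 comparisons, except 3 of 38 checkpoint genes for sgSRSF1 (7.65% of all listed genes). In the direct comparison of sgSRSF1 with sgHNRNPL, which has no deposited p, the CHEK2 87-nt and 325-nt exons differed by 22.20 and -21.44 points. limma in place of the deposited p gave 1 event for sgSRSF1 and 0 for sgHNRNPL, where the deposited p gave 4 and 1; with no minimum difference limma gave 4 for sgSRSF1. Leaving out each library in turn, the deposited threshold was passed by 0 to 1 events for IL-6 in MM.1S, 0 to 2 for sgELL2 in MM.1S, 1 to 5 for sgSRSF1 and 0 to 2 for sgHNRNPL, and limma called 0 to 2 for sgSRSF1, 0 to 1 for sgHNRNPL and 2 to 5 between them. The cause of these changes was not tested. No called difference changed direction. The depth per event is unknown and sets a limit that could not be measured.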
